A study of Mus musculus with 6 samples.

Results

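Of 8 genes of peripheral myelin and Schwann cells, Cmtm5, Cnp and Lgi4 were 4.04-, 2.99- and 2.12-fold lower in NCU10K cells treated with Nedd4 siRNA than with control siRNA, Mbp was slightly lower, and Pmp22, Mal and Mag overlapped between the groups. Prx had no probeset of its own on the array. The 8 genes are Pmp22, Mbp, Mal, Mag, Prx, Cnp, Cmtm5 and Lgi4. They were chosen by name, and each was read from the probeset that carried its symbol alone and had the highest mean signal. In this way 7 of the 8 were measured, of 19933 named genes in all. Earlier values of this same comparison were known when the 8 were picked, so their fold changes are given as a description and carry no test.

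NCU10K cells come from mouse neural crest and were immortalized. They were grown in DMEM with foetal calf serum, and the study used them to ask what the ubiquitin ligase NEDD4 controls in neural crest cells. Cells were transfected with Nedd4 siRNA or with a low GC control siRNA in RNAiMAX, and total RNA was taken after 48 h from 3 independent experiments per siRNA. Each RNA sample was run on 1 Affymetrix mouse gene array, 6 in all, and values are the deposited log2 expression values. The knockdown rests on 1 cell line and on the siRNA alone, with no rescue among these arrays, and the methods and the submitters' notes differ on the culture vessel from which the RNA was taken.

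Schwann cells are the glia of peripheral nerves, and they arise from the neural crest. Under signals from axons, above all neuregulin acting through ERBB3, and under the transcription factors SOX10 and EGR2, they wrap large axons in myelin, a stack of membrane rich in cholesterol and galactolipids. PMP22 and MBP lie in compact myelin, where MBP holds the cytoplasmic faces together, and MAL is a lipid raft protein of myelin membranes. MAG sits on the membrane that faces the axon, CNP keeps channels of cytoplasm open within the sheath, and periaxin (Prx) anchors the outer membrane to dystroglycan through DRP2. CMTM5 is a membrane protein of the MARVEL family known from myelin of the central nervous system, and LGI4 is secreted by Schwann cells and binds ADAM22.

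Nedd4, the gene the siRNA was made against, was measured first as a check of the labels. It was at 10.45, 10.94 and 10.68 on the log2 scale in Nedd4 siRNA cells, against 12.24, 12.35 and 12.34 in control siRNA cells. Its log2 fold change, Nedd4 siRNA over control siRNA here and throughout, was −1.62 (SE 0.12, limma adjusted p = 3.16e-06). The exact two-sided permutation p of this single gene was 0.1, the smallest that 3 arrays against 3 can give. The 6 arrays had medians of 6.28 to 6.35 and interquartile ranges of 3.06 to 3.33, with the widest range on the arrays numbered 2 of both groups. Values of different probesets are not compared with each other, since each probeset has its own brightness.

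Cmtm5 was at 6.26, 6.47 and 6.44 in Nedd4 siRNA cells, against 8.37, 8.58 and 8.26 in control siRNA cells. All 3 Nedd4 siRNA arrays lay well below all 3 control arrays. The log2 fold change was −2.01 (SE 0.10), a level 4.04-fold lower in Nedd4 siRNA cells. As these are bulk samples, fewer cells expressing a gene and less RNA of it per cell cannot be told apart, here and for every gene that follows.

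Cnp, the phosphodiesterase of myelinating glia, was at 7.86, 7.96 and 7.71 in Nedd4 siRNA cells, against 9.23, 9.66 and 9.38 in control siRNA cells. The groups were apart by more than their own spread, and control replicate 2 was the highest array, as it was for Cmtm5 and Lgi4. The log2 fold change was −1.58 (SE 0.12), or 2.99-fold lower. Lgi4, the secreted ligand, was at 7.32, 7.32 and 7.26 in Nedd4 siRNA cells, against 8.37, 8.57 and 8.21 in control siRNA cells. Its Nedd4 siRNA arrays lay close together (SD 0.035 over 3 arrays) and its control arrays were wider apart (SD 0.18 over 3 arrays), with no overlap. Its log2 fold change was −1.08 (SE 0.10), or 2.12-fold lower.

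Of the compact myelin genes, Mbp was at 6.10, 6.19 and 6.17 in Nedd4 siRNA cells, against 6.44, 6.39 and 6.45 in control siRNA cells. The groups did not overlap, but the gap between the nearest arrays was small, and the log2 fold change was −0.27 (SE 0.083). Pmp22, whose dosage underlies inherited neuropathies in humans, was at 11.95, 12.16 and 11.92 in Nedd4 siRNA cells, against 12.14, 12.19 and 12.37 in control siRNA cells. Nedd4 siRNA replicate 2 lay above the lowest control array, and the log2 fold change was −0.22 (SE 0.10). Mal was at 6.71, 6.81 and 7.08 in Nedd4 siRNA cells, against 6.84, 6.79 and 6.68 in control siRNA cells. Its groups overlapped, with Nedd4 siRNA replicate 3 the highest array, and the log2 fold change was 0.10 (SE 0.11).

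Mag, the axon-facing lectin, was at 5.11, 4.81 and 5.0 in Nedd4 siRNA cells, against 5.10, 4.89 and 5.10 in control siRNA cells. These values overlapped throughout (log2 fold change −0.06, SE 0.10). Its probeset was among the dimmest 25% of all probesets, so a lower level would have been hard to see.

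**Figure D1:**
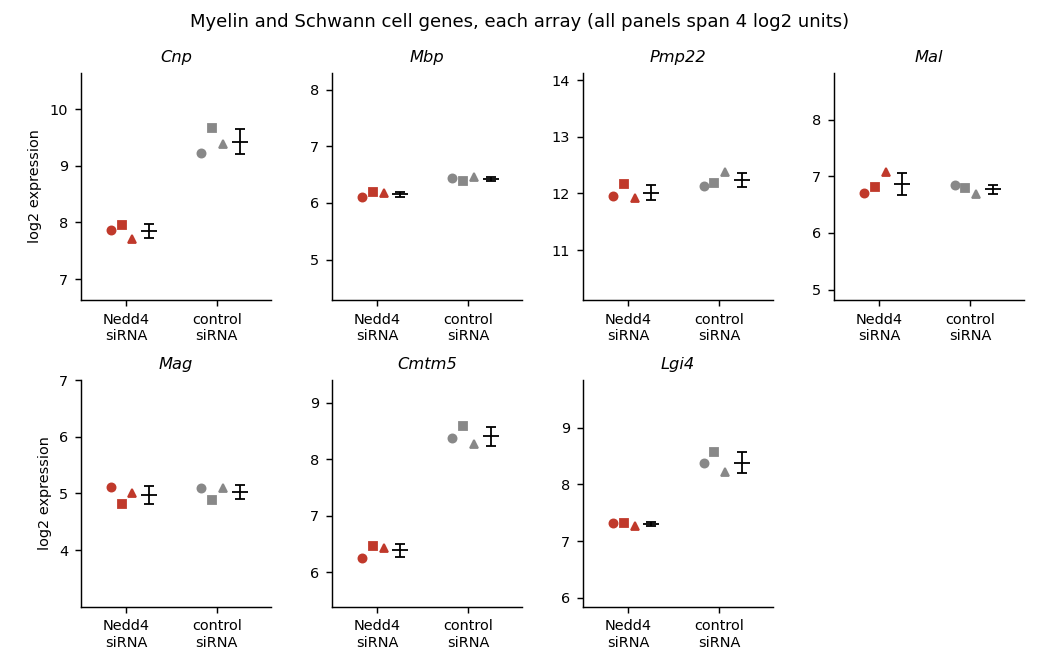
Log2 expression (y axis, each panel spanning the same number of log2 units) of the 7 measured genes on each array, with Nedd4 siRNA cells in red on the left and control siRNA cells in grey on the right. Circles, squares and triangles are replicates 1, 2 and 3, and black bars are the mean and SD of 3 arrays; Cnp, Cmtm5 and Lgi4 are far apart between the groups, Mbp narrowly so, and Pmp22, Mal and Mag overlap.

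The 7 genes thus split by size of change. In 3 of the 7 the log2 fold change was −1 or less, a size that 0.732% of all named genes reached with an adjusted p under 0.05. With the call rule used for all genes, a limma adjusted p under 0.05, 4 of the 7 were lower and 0 higher, where 9.13% of all named genes were lower and 9.62% higher. The groups did not overlap, on the lower side, for the same 4, against 15.6% of all named genes, and 16.1% did not overlap on the higher side. Because this comparison was known when the genes were picked, nothing is read from these counts. At the threshold, Mbp (−0.27) was the gene just inside and Pmp22 (−0.22) the gene just outside. Mbp passed in the fit to all 6 arrays but not when any 1 array was left out, where its log2 fold change lay between −0.29 and −0.25. The median log2 fold change of the 7 was −0.27, against −0.02 over all named genes.

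Among the genes whose groups were far apart, the size of the shift was steady from array to array. Set against the mean of its own control arrays, Cmtm5 was at −2.14, −1.93 and −1.96 log2 units on the 3 Nedd4 siRNA arrays. Cnp was at −1.56, −1.46 and −1.71 on the same scale and Lgi4 at −1.06, −1.06 and −1.12. The array with the lowest value was not the same for each, being Nedd4 siRNA replicate 1 for Cmtm5 and Mbp and replicate 3 for Cnp, Lgi4 and Pmp22. Under quantile normalization between arrays the log2 fold changes were −2.0 for Cmtm5, −1.60 for Cnp, −1.09 for Lgi4, −0.25 for Mbp, −0.25 for Pmp22, 0.11 for Mal and −0.04 for Mag. No gene changed direction under that scaling or with arrays centred on their median.

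Seen array by array, the mean of the 7 genes, each centred on its own mean, was −0.40, −0.34 and −0.36 log2 units in Nedd4 siRNA cells, against 0.34, 0.42 and 0.34 in control siRNA cells. No single array made the difference. The 5 other genes whose 6 values followed this mean most closely were Cox15, Hirip3, Ankfn1, Hsd11b1 and Med25, with Pearson's r from 0.9998 for Cox15 to 0.9989 for Med25 over 6 arrays. All 5 were lower in Nedd4 siRNA cells, as a likeness to this mean requires, with log2 fold changes of −0.84, −0.54, −0.98, −2.08 and −0.93. The 6 arrays share their 2 groups, so these values of r mainly reflect the gap between groups, and no p is given.

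The start regions of these genes are shown because the classical regulators of myelin genes, SOX10 and EGR2, bind short motifs near them. Promoter sequences from RefSeq (mouse build GRCm38.p6) were used for 6 of the 8 genes, all but Mbp and Lgi4. In each, 220 bases, from 250 to 31 bases before an annotated start, were searched on both strands for the SOX motif ACAAAG, the SOX motif ACAAT and the EGR motif GTGGGNG. Over 32851 such windows of all genes, 14.8% held ACAAAG, 25.6% ACAAT and 24.8% GTGGGNG. The Cnp and Mag windows shown here held ACAAAG once each, in Mag on the opposite strand and therefore written as CTTTGT, and the Pmp22 window held none of the 3 motifs. They are given 5′ to 3′ on the strand of the gene, with the SOX motif in capitals, for Cnp at chr11:100574689-100574908 (plus strand), for Mag at chr7:30914953-30915172 (minus strand) and for Pmp22 at chr11:63128732-63128951 (plus strand).
Cnp: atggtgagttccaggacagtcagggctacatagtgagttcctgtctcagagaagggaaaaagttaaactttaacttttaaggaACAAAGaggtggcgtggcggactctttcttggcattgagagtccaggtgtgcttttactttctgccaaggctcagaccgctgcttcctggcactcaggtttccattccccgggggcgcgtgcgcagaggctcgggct
Mag: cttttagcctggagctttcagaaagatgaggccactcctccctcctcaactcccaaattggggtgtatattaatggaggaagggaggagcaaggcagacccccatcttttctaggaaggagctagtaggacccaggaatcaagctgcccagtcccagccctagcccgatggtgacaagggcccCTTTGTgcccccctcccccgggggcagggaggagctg
Pmp22: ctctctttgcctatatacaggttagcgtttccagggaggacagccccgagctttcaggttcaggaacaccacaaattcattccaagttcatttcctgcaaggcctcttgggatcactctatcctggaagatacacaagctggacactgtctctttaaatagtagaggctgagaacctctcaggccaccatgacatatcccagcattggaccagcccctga
Cnp and Mag thus share the letters of this motif upstream of a start, while Cnp was 2.99-fold lower in Nedd4 siRNA cells and the Mag values overlapped. The Mag probeset was among the dimmest 25%, where a lower level would have been hard to see, so nothing is read from this contrast. A further Mag window, inside its annotated span, held none of the 3 motifs. The windows of Cmtm5, which lie inside its annotated span, and that of Mal held none of the 3 motifs and that of Prx held GTGGGNG once. A motif match is a string of letters and shows no binding.

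The neighbours of 7 of the 8 genes on their chromosomes were read next. Of the 14 measured genes on either side, 3 were past the threshold, all lower, where 18.7% of all named genes passed in either direction. Fxyd3, which encodes a regulator of the sodium pump, lies next to Lgi4 on chromosome 7 and its annotated span overlaps that of Lgi4. It was at 6.89, 6.81 and 6.80 in Nedd4 siRNA cells, against 8.10, 8.03 and 7.86 in control siRNA cells, with no overlap. Its log2 fold change of −1.16 (SE 0.092, limma adjusted p = 6.36e-06) was close in size to that of Lgi4 (−1.08). Whether probes of one gene read transcripts of the other was not tested. The others were Hamp2, beside Mag (−0.39, SE 0.10, limma adjusted p = 0.0184), and Hipk4, beside Prx (−0.30, SE 0.090, limma adjusted p = 0.0393). The methods' t-test called neither (0.14 and 0.093). The Hamp2 call was lost without Nedd4 siRNA replicate 1 or 3 or control siRNA replicate 3 (limma adjusted p from 0.072 to 0.082), and the Hipk4 call on leaving out any 1 array other than control siRNA replicate 3 (from 0.071 to 0.14). Cnp and Cmtm5 had neighbours with overlapping spans too, Dnajc7 on chromosome 11 and Myh6 on chromosome 14, and neither passed, with log2 fold changes of −0.12 (SE 0.089) and −0.17 (SE 0.11).

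Other proteins of peripheral myelin, listed for what they do but with earlier results of these data known, moved in both directions. Of 25 listed, 23 were measured, and by limma 7 were lower, 3 were higher and 13 did not pass, with a median log2 fold change of −0.08. That is 30.4% lower and 13.0% higher, beside 9.13% and 9.62% of all named genes. By the methods' t-test, which uses each gene's own variance, 5 of the 23 passed, as did 9.05% of all named genes. Pmp2, the fatty acid binding protein of peripheral myelin, was at 5.31, 5.45 and 5.47 in Nedd4 siRNA cells, against 8.70, 8.65 and 8.59 in control siRNA cells (−3.24, SE 0.088, limma adjusted p = 2.10e-09). Its Nedd4 siRNA mean of 5.41 lay below 5.47, the upper bound of mean signal among the dimmest 25% of probesets, so the fold may be a lower bound.

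The complex that periaxin joins could be read although Prx itself could not. Dag1, which encodes dystroglycan, was at 9.56, 9.84 and 9.55 in Nedd4 siRNA cells, against 10.90, 11.10 and 10.95 in control siRNA cells (−1.33, SE 0.10, limma adjusted p = 5.54e-06). Drp2, the link between dystroglycan and periaxin, was at 6.30, 6.47 and 6.35 in Nedd4 siRNA cells, against 7.06, 7.07 and 7.30 in control siRNA cells (−0.77, SE 0.097, limma adjusted p = 0.000168). In both genes all 3 Nedd4 siRNA arrays lay below all 3 control arrays. Cadm4, an adhesion molecule by which Schwann cells hold axons, was at 7.88, 7.93 and 7.86 in Nedd4 siRNA cells, against 8.89, 8.99 and 8.60 in control siRNA cells (−0.94, SE 0.11, limma adjusted p = 7.50e-05). Gjc3, a connexin of myelinating glia (−0.74), Pllp, a MARVEL protein of myelin (−0.44), and Nfasc, the cell adhesion molecule of the node region (−0.38), were lower by limma (adjusted p = 0.000597, 0.00537 and 0.0104). The methods' t-test called none of these last genes (adjusted p = 0.058, 0.055 and 0.056), and leaving out Nedd4 siRNA replicate 1 cost Nfasc its call (limma adjusted p = 0.078).

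The 3 myelin list genes that were higher encode organisers of the cell membrane. The tetraspanin Cd9 was at 10.87, 10.66 and 10.80 in Nedd4 siRNA cells, against 10.22, 10.26 and 9.86 in control siRNA cells (0.66, SE 0.11, limma adjusted p = 0.00149; methods' t-test 0.082). Epb41l2, a cytoskeletal linker of the Schwann cell membrane, was at 11.45, 11.42 and 11.45 in Nedd4 siRNA cells, against 10.86, 10.80 and 10.88 in control siRNA cells (0.59, SE 0.083, limma adjusted p = 0.000335). The tetraspanin Cd81 was higher by 0.27 (SE 0.086, limma adjusted p = 0.0481), a call that was lost by the methods' t-test (0.054), with quantile normalization and on leaving out any 1 array other than control siRNA replicate 2 (limma adjusted p from 0.095 to 0.15). Genes used as Schwann cell labels did not all move. S100b, a calcium binding protein, had a log2 fold change of 0.13 (SE 0.094) and Gjb1, the connexin of non-compact myelin, one of 0.01 (SE 0.10), and neither passed.

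**Figure D2:**
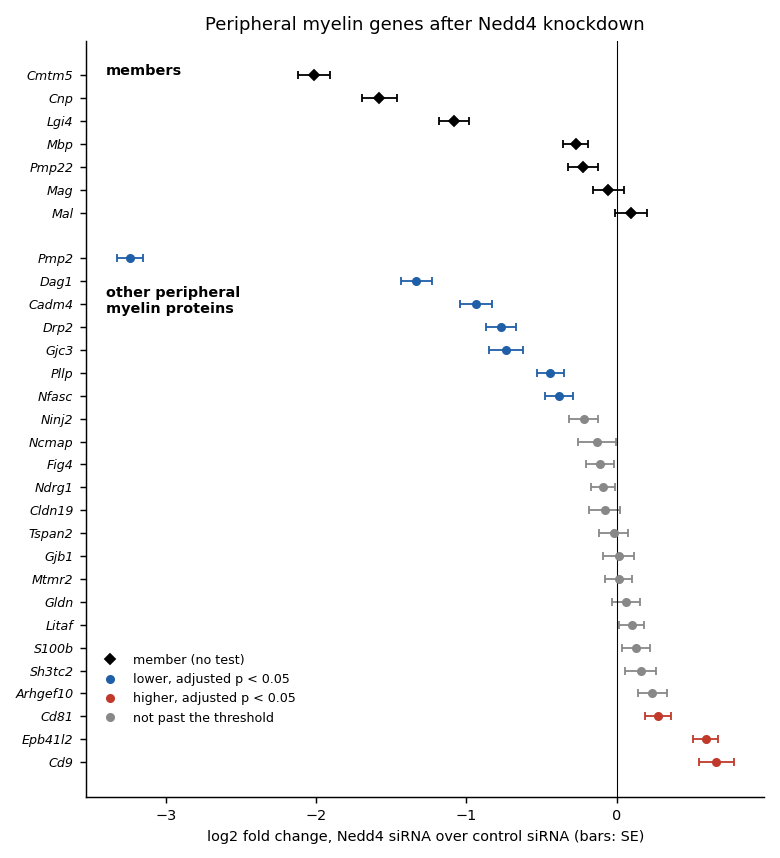
Log2 fold change (x axis, Nedd4 siRNA over control siRNA) with its SE for the 7 measured genes (members, black diamonds, no test) and 23 other peripheral myelin proteins (circles). Blue circles are lower and red circles higher at a limma adjusted p under 0.05, and grey circles did not pass; Pmp2 at −3.24 and Dag1 at −1.33 lie farthest left among the other proteins, and Cd9 at 0.66 farthest right.

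Transcription factors of the Schwann cell lineage moved in both directions. All 22 listed were measured, and 4 were lower, 4 were higher and 14 did not pass (limma), with a median of −0.08, beside 9.13% lower and 9.62% higher among all named genes. By the methods' t-test 3 were lower and 1 was higher, as Sox10, Egr2, Egr1 and Sox2 lost their calls. Sox10, the factor that neural crest and all Schwann cell stages need, was at 10.65, 10.73 and 10.53 in Nedd4 siRNA cells, against 11.08, 11.19 and 10.93 in control siRNA cells (−0.43, SE 0.098, limma adjusted p = 0.00864). Egr2, which drives myelination, was at 7.27, 7.30 and 6.82 in Nedd4 siRNA cells, against 6.21, 6.17 and 6.31 in control siRNA cells (0.90, SE 0.12, limma adjusted p = 0.000288). The groups did not overlap for either gene. Sox10 was thus lower together with Cmtm5, Cnp and Lgi4, and Egr2 was higher. The methods' t-test called neither gene, at an adjusted p of 0.088 for Sox10 and 0.057 for Egr2. For the SOX10 protein, unlike these RNA values a protein measure, the study reported a decrease after the knockdown, by mass spectrometry and western blot.

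Nfatc3, a calcineurin-dependent factor of the family that works with SOX10 in Schwann cells, was at 10.31, 10.47 and 10.22 in Nedd4 siRNA cells, against 11.21, 11.15 and 11.31 in control siRNA cells (−0.89, SE 0.095, limma adjusted p = 4.98e-05). Foxd3 and Tfap2a, factors of the crest and of Schwann cell precursors, were lower by limma (−0.54, adjusted p = 0.00136, and −0.51, adjusted p = 0.00164).

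Among signals from axon to Schwann cell and their receptors, 24 of 25 listed were measured. By limma 5 were lower, 3 were higher and 16 did not pass. That is 20.8% lower and 12.5% higher, beside 9.13% and 9.62% of all named genes. The number lower was 2 without Nedd4 siRNA replicate 1, without Nedd4 siRNA replicate 3 or without control siRNA replicate 3, and 3 without control siRNA replicate 1 or by the methods' t-test. Lpar1, Itgb4 and Igf1r, with log2 fold changes of −0.32, −0.32 and −0.29, each lost their calls in 1 or more of these. Erbb3, the neuregulin receptor, was at 9.48, 9.84 and 9.62 in Nedd4 siRNA cells, against 10.85, 10.89 and 10.61 in control siRNA cells (−1.14, SE 0.11, limma adjusted p = 2.93e-05). These are RNA values, and for the ERBB3 protein the study reported an increase after Nedd4 knockdown, by mass spectrometry and western blot. The receptors of the LGI family stand beside Lgi4, which was 2.12-fold lower. Adam22, a receptor of LGI4, had a log2 fold change of −0.05 (SE 0.10) and Adam11 one of −0.25 (SE 0.096), and neither passed. Adam23, another receptor of LGI proteins, was at 7.18, 7.05 and 7.15 in Nedd4 siRNA cells, against 6.18, 6.5 and 6.26 in control siRNA cells (0.81, SE 0.10, limma adjusted p = 0.000145). Itga6, the laminin receptor subunit, was lower (−0.64, SE 0.090, limma adjusted p = 0.000339) and Gas6, a ligand of the AXL receptor, was higher (0.46, SE 0.089, limma adjusted p = 0.00329).

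**Figure D3:**
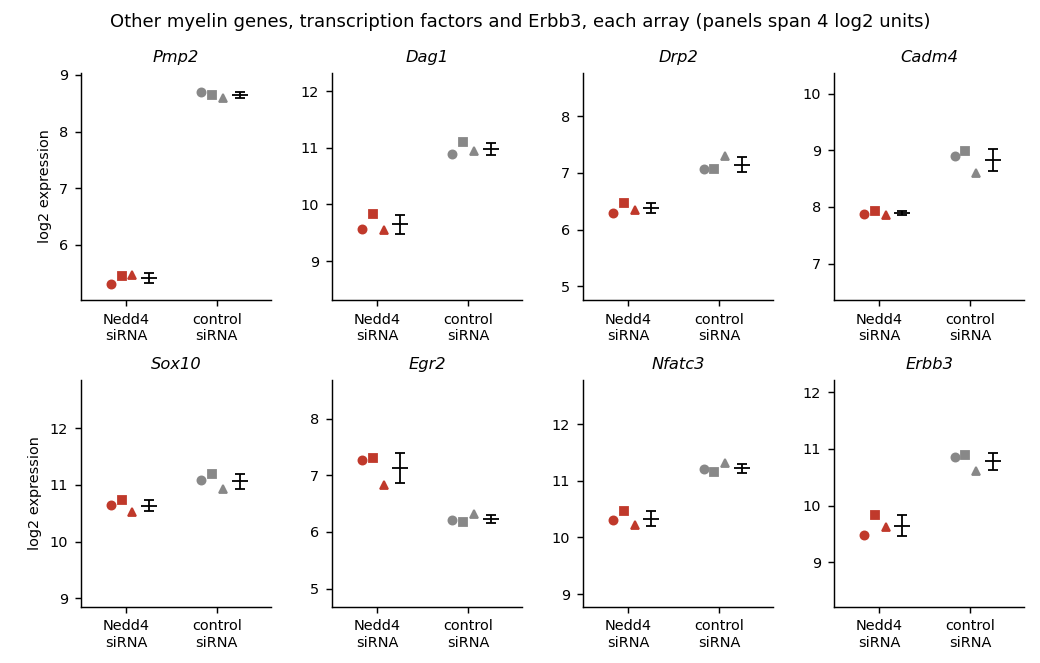
Log2 expression (y axis, each panel spanning the same number of log2 units) of Pmp2, Dag1, Drp2, Cadm4, Sox10, Egr2, Nfatc3 and Erbb3 on each array, with Nedd4 siRNA cells in red on the left and control siRNA cells in grey on the right. Circles, squares and triangles are replicates 1, 2 and 3, and black bars are the mean and SD of 3 arrays; in all 8 genes the groups are apart, and Egr2 is the gene that is higher in Nedd4 siRNA cells.

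Genes that make myelin lipids were read as well. Of 21 listed, 19 were measured, and by limma 8 were lower, 1 was higher and 10 did not pass, with a median of −0.12. That is 42.1% lower and 5.26% higher, beside 9.13% and 9.62% of all named genes. Within this list, a subgroup drawn after its values were seen holds the 7 measured genes of sterol synthesis and its SREBP2 regulators. By limma 6 of them were lower and 1 was higher, beside 9.13% and 9.62% of all named genes, and Srebf2 was not called by the methods' t-test (0.092). Of 4 genes of fatty acid synthesis, 0 passed by limma and 0 by the methods' t-test, and 1 had an unadjusted p under 0.05. Idi1, the isopentenyl isomerase, was at 8.73, 8.78 and 8.59 in Nedd4 siRNA cells, against 9.68, 9.62 and 9.97 in control siRNA cells (−1.06, SE 0.11, limma adjusted p = 3.49e-05). Sqle, the squalene epoxidase, and Dhcr7, which makes the last step to cholesterol, were lower by a similar size (−0.88, adjusted p = 6.81e-05, and −0.89, adjusted p = 9.69e-05, limma). Hmgcs1, which acts upstream of all of these, was at 8.94, 8.94 and 8.90 in Nedd4 siRNA cells, against 8.04, 8.18 and 7.97 in control siRNA cells (0.86, SE 0.089, limma adjusted p = 3.84e-05). It was therefore higher where the later enzymes were lower.

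By limma 9.13% of all named genes were lower, and of 8 genes of sphingolipid and galactolipid synthesis 2 passed, both lower. These were Ugt8a, which makes galactosylceramide (−0.65, adjusted p = 0.000842; methods' t-test 0.054), and Gal3st1, which adds its sulfate (−0.43, adjusted p = 0.00416).

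The relatives of Cmtm5, Mal, Pmp22, Lgi4 and Mag did not move as one. Of 8 other CMTM genes, 6 were measured, and 2 were lower, 2 were higher and 2 did not pass by limma. Among all named genes 9.13% were lower and 9.62% higher. Cmtm3 was at 8.40, 8.54 and 8.63 in Nedd4 siRNA cells, against 10.17, 10.20 and 10.02 in control siRNA cells (−1.61, SE 0.095, limma adjusted p = 9.66e-07). Cmtm7 was lower too (−0.95, SE 0.12, limma adjusted p = 0.000141), while Cmtm6, a partner of PD-L1 at the cell surface in human cells, was higher (0.56, SE 0.093, limma adjusted p = 0.0012). Cmtm4 was higher by 0.50 (limma adjusted p = 0.00319; methods' t-test 0.061). Cmtm3 and Cmtm7, like Cmtm5, lay on the lower side and Cmtm4 and Cmtm6 on the higher side, with no overlap of the groups. Over all named genes 15.6% did not overlap on the lower side and 16.1% on the higher side. The groups overlapped for the other 2 measured CMTM genes, Cmtm2b (−0.04) and Cmtm8 (−0.08).

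By limma 18.7% of all named genes passed, and by the methods' t-test 9.05%. Of 4 relatives of Mal, 1 passed by limma, which was Myadm (−0.58, SE 0.11, adjusted p = 0.00263; methods' t-test 0.087). Of 3 genes of the PMP22 family, 1 passed, which was Emp1 (−0.39, SE 0.097, limma adjusted p = 0.0135). The Emp1 call was lost by the methods' t-test (0.096) and without Nedd4 siRNA replicate 1 or replicate 3 (limma adjusted p = 0.065 and 0.069). By the methods' t-test Emp2 passed instead, on the higher side (0.20, adjusted p = 0.045, limma adjusted p = 0.14). The other 3 LGI genes had log2 fold changes from −0.10 to 0.02, and 0 passed by limma, 0 by the methods' t-test and 0 had an unadjusted p under 0.05. All 3 were among the dimmest 25% of probesets. Of 6 lectin genes related to Mag, 0 passed by limma, 1 passed by the methods' t-test and 2 had an unadjusted p under 0.05.

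The labelled cell type was checked against markers. Sox10, Foxd3 and Tfap2a, named above as factors of the crest, were counted with the Schwann cell transcription factors and not here. They were lower by limma (−0.43, −0.54 and −0.51), and the methods' t-test called Foxd3 (0.036) and Tfap2a (0.031). The counts and means below leave them out. All 11 listed neural crest markers were measured, and 1 of them was among the dimmest 25% of probesets. By limma 3 were lower and 2 higher, beside 9.13% and 9.62% of all named genes. By the methods' t-test 0 were lower and 1 higher, where 9.05% of all named genes passed. The mean level of the 11 markers ran from 7.67 to 7.71 in Nedd4 siRNA cells and from 7.64 to 7.70 in control siRNA cells. Without Nedd4 siRNA replicate 1 or without Nedd4 siRNA replicate 3, 1 was lower and 1 higher. Sox9, a factor of early crest and cartilage, was higher (0.66, adjusted p = 0.000337), and Ets1, a factor of migrating crest, was lower (−0.53, adjusted p = 0.00245; methods' t-test 0.061). Snai2 (−0.33) and Nes (−0.37) were lower by limma (adjusted p = 0.0293 and 0.0394) but not by the methods' t-test (0.11 and 0.22). Twist1, a factor of mesenchymal crest, was higher by 0.31 (limma adjusted p = 0.0419; methods' t-test 0.12), a call lost on leaving out any 1 array other than control siRNA replicate 2 (limma adjusted p from 0.062 to 0.15). The Snai2 call was lost on leaving out any 1 of the Nedd4 siRNA arrays or control siRNA replicate 3 (limma adjusted p from 0.053 to 0.15). The Nes call was lost without Nedd4 siRNA replicate 1 or 3 or control siRNA replicate 1 or 2 (limma adjusted p from 0.090 to 0.15).

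Of 12 measured markers of immature Schwann cells and satellite glia, 1 was lower and 2 were higher by limma. Among all named genes 9.13% were lower and 9.62% higher. Fabp7, the brain-type fatty acid binding protein of precursors, was at 12.02, 11.95 and 12.04 in Nedd4 siRNA cells, against 10.89, 10.89 and 10.63 in control siRNA cells (1.20, SE 0.096, limma adjusted p = 6.85e-06). It was higher where Pmp2, a gene of the same family, was lower. Ncam1, a homophilic adhesion molecule of non-myelinating Schwann cells, was higher (0.69, limma adjusted p = 0.000341) and Mcam, another adhesion molecule, was lower (−0.86, limma adjusted p = 6.5e-05).

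Markers of other cell types were read because a change in the make-up of the culture would alter bulk values. Of 15 oligodendrocyte, 9 melanocyte and 7 endothelial markers, 0 passed by limma and 0 by the methods' t-test. The shares over all named genes were 18.7% and 9.05%. Of the markers, 1, 1 and 0 had an unadjusted p under 0.05. In the same order, 5, 4 and 6 of them were among the dimmest 25% of probesets. A lower level of those would have been hard to see, so their lack of calls does not show that these cell types were unchanged. The mean level of each of these lists overlapped between the groups. The oligodendrocyte markers averaged 5.64 to 5.79 on the Nedd4 siRNA arrays and 5.66 to 5.84 on the control arrays. Aspa and Nkx6-2 of that list had log2 fold changes of 0.12 and 0.10, Mitf and Mlana of the melanocyte list 0.28 and −0.09, and Cldn5 and Tie1 of the endothelial list −0.07 and 0.01. With quantile normalization, with median centring or without the dimmest 25% of probesets, 1 melanocyte marker was higher by limma. Of 11 neuron markers, 1 passed, the tubulin Tubb3 (0.35, limma adjusted p = 0.0119), and 6 were among the dimmest 25% of probesets.

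Of 13 smooth muscle and fibroblast markers, 4 were higher and 0 lower by limma, beside 9.62% and 9.13% of all named genes. The other 9 did not pass, with log2 fold changes from −0.06 (Tagln) to 0.22 (Acta2). The mean of the 13 was 7.01 to 7.09 on the Nedd4 siRNA arrays and 6.79 to 6.88 on the control arrays, with no overlap. Pdgfra, a receptor of mesenchymal cells, was at 7.0, 7.02 and 6.95 in Nedd4 siRNA cells, against 6.20, 6.25 and 6.08 in control siRNA cells (0.81, SE 0.087, limma adjusted p = 4.98e-05). The matrix proteoglycan Dcn (0.58, adjusted p = 0.000439), the receptor Pdgfrb (0.54, adjusted p = 0.00129) and the intermediate filament Des (0.36, adjusted p = 0.0217) were higher by limma. Des was not called by the methods' t-test (0.11) or without Nedd4 siRNA replicate 1 or 3 or control siRNA replicate 3 (limma adjusted p from 0.073 to 0.14). The part of these markers in the lower Cmtm5, Cnp and Lgi4 was not tested. Of 8 macrophage markers 1 was lower, the lysosomal protein Cd68 (−1.97, SE 0.13, limma adjusted p = 1.47e-06), at 6.23, 6.52 and 6.28 in Nedd4 siRNA cells, against 8.24, 8.58 and 8.11 in control siRNA cells. The other 7, among them Ptprc (−0.07) and Csf1r (−0.10), did not pass, with log2 fold changes from −0.15 to 0.01. The mean of all 8, which includes Cd68, was 5.61 to 5.66 on the Nedd4 siRNA arrays and 5.89 to 6.02 on the control arrays. Of the 8, 4 were among the dimmest 25% of probesets, where a lower level would have been hard to see. The part of Cd68 in the lower genes was not tested either.

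**Figure D4:**
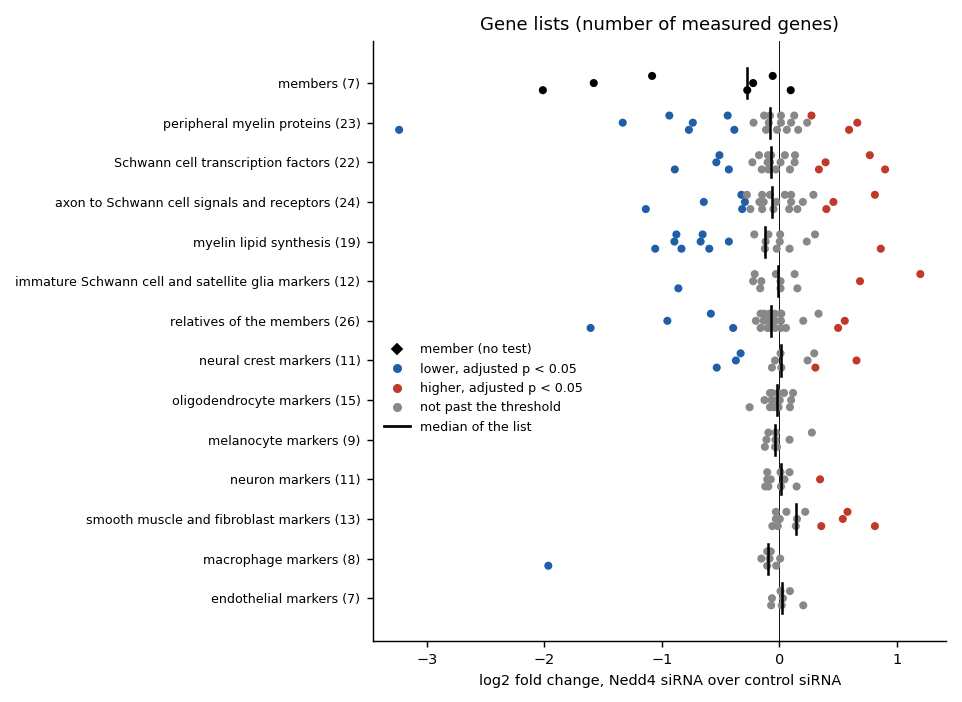
Log2 fold change (x axis, Nedd4 siRNA over control siRNA) of every measured gene in each list, with the number measured in brackets and the list's median as a black line. Black points are the members (no test), blue points are lower and red points higher at a limma adjusted p under 0.05, and grey points did not pass; the members have the lowest median, −0.27, and the smooth muscle and fibroblast markers the highest, 0.14.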

How the data were processed

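RNA of NCU10K cells (3 Nedd4 siRNA and 3 control siRNA samples) was hybridised to Affymetrix mouse gene arrays, 1 per sample, from 300 ng of RNA. The authors made log2 expression values from the scans in Partek, version 6.5 per the labels, with RMA background correction, correction for GC content and the mean over probes, and deposited them for 28440 probesets to 2 decimals. No further normalization was applied, and the array number limits the precision. In GEO's platform annotation 21780 probesets had a single symbol, 1618 had several and 5042 had none, and only the first kind named genes.

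The siRNAs were compared in R 4.3.3 with limma 3.58.1 (lmFit, eBayes, no covariate). All probesets entered the Benjamini-Hochberg adjustment, and an adjusted p under 0.05 was called. The median residual SD was 0.117 on the log2 scale. The test was first tested on simulated data. The methods' t-test is the ANOVA of the methods, with 1 factor and the same adjustment. Counts, motif searches and figures used Python 3.11.15, NumPy 2.4.6, pandas 2.3.3, SciPy 1.17.1 and Matplotlib 3.10.9. The alternatives changed the test (the methods' t-test, or eBayes with trend and robust), added the replicate block, centred arrays on the median or quantile normalized them, dropped the dimmest 25% of probesets, averaged a gene's probesets, lowered the threshold to 0.01 or left out each array.

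The 8 genes and the 13 other lists (210 genes) were chosen with earlier results of these data known, the lists by function. Named were all 8 genes, Nedd4, the 4 genes (or fewer) of smallest p among those called in each list (the 2 of highest mean signal where none passed) and the 5 genes most like the mean profile. Named after their values were seen were the neighbours, Gjc3, Pllp, Nfasc, Cd9, Epb41l2, Cd81, S100b, Gjb1, Sox10, Egr1, Sox2, Twist1, Lpar1, Itgb4 and Igf1r. So were Adam22, Adam11, Srebf2, Ugt8a, Gal3st1, Cmtm2b, Cmtm4, Cmtm8, Emp1, Emp2, Tagln, Acta2, Ptprc and Csf1r. The functional subgroups of the lists were drawn then too. Promoter windows inside an annotated gene span were searched but are not printed, and amino acid sequences and the promoters of Mbp and Lgi4 were not used here.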

Additional observations from a re-analysis of the deposited data

How the results depend on the processing

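Cnp, Cmtm5 and Lgi4 kept their direction and side of the threshold under all 14 alternatives, with log2 fold changes of −1.68 to −1.46, −2.09 to −1.93 and −1.17 to −0.99. Mbp kept its direction but lost its call in 9 of the 14, among them every left-out array, and its log2 fold change stayed between −0.29 and −0.25. Mal ranged from −0.01 (without Nedd4 siRNA replicate 3) to 0.18, and Mag from −0.13 to 0.025 (without Nedd4 siRNA replicate 2), so that both changed sign. The alternatives reuse the comparison that was known when these genes were picked, so their outcome for these genes is a description and no test. Leaving out 1 array, which leaves fewer samples, gave 3 of these genes lower in each case, 8 to 10 other myelin proteins, 2418 to 3490 named genes past the threshold, against 3737 with all arrays, and a member median of −0.30 to −0.25. The lowest number of named genes came without Nedd4 siRNA replicate 1. By the methods' t-test 5 other myelin proteins and 1804 named genes passed, and at an adjusted p under 0.01, a stricter threshold, 2362 named genes. Without the dimmest 25% of probesets the median was −0.68, since Mag was left out. With the replicate number as a block, 4 of these genes were lower, 10 other myelin proteins and 4000 named genes passed, and the median was −0.27. Deviations of same-numbered arrays correlated at −0.01, 0.47 and −0.01, and those of differently numbered arrays at −0.43 to 0.42. With 3 arrays per group, deviations from the group mean depend on each other, so these values cannot settle whether the numbers pair the samples. Of 55 other listed genes past the threshold, 21 lost it by the methods' t-test and 0 changed direction under any alternative. The cause of these shifts was otherwise not tested.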
